A study of Homo sapiens with 6 samples.

Results

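Divergent promoter transcripts are noncoding RNAs that start at the promoter of a coding gene and run away from it on the other strand, and their gene symbols carry the name of that coding gene with the suffix -DT. The transcripts described here were all genes with such a symbol in GENCODE selected on their read counts, at least 10 reads in each of at least 3 of 6 RNA-seq libraries. There were 291 of them among 60675 counted genes. GENCODE lists 590 such symbols, the count files hold 578, and of the 287 that were counted but did not reach the minimum 64 had no read in any library. The coding gene named in the symbol, called the partner below, was found for all 291, and each lay on the opposite strand from its transcript.

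The libraries were 3 of PLC/PRF/5 cells labelled control and 3 labelled MTR4 KD, in which the RNA helicase MTR4 (gene symbol MTREX) was knocked down. PLC/PRF/5 is an established human hepatocellular carcinoma line, grown in DMEM with fetal bovine serum. The study's methods describe a stable lentiviral shRNA against MTR4 and one that is switched on by doxycycline. Its results describe the RNA-seq as made before and after the inducible knockdown, while the sample titles say only control and MTR4 KD. On that description every library came from cells that carry the same shRNA. Then shRNA expression and doxycycline exposure cannot be told apart from the loss of MTR4 in these libraries. Doxycycline-treated cells with a scramble shRNA were measured in the study for glycolytic genes, and no library here is labelled as such. The sources do not say whether the libraries of a group came from separate cultures, so p-values measure only the spread between these libraries.

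MTR4 feeds nuclear RNA to the exosome, the complex that degrades RNA from its 3′ end. It does so within the NEXT complex, with ZCCHC8 and RBM7, and through the PAXT connection, with ZFC3H1 and PABPN1. Transcription starts in both directions at most active mammalian promoters, and the RNA made in the antisense direction is as a rule short-lived, ending early at poly(A) signals and being removed by the nuclear exosome. The annotated -DT genes are those divergent products for which a transcript has been catalogued, many of them spliced and polyadenylated.

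Total gene counts ran from 60686786 to 72708682 reads a library. The libraries fell into 2 sets by the share of alignments at more than 1 place in the genome. It was between 34.7% and 37.5% in control 1, control 3 and MTR4 KD 3, and between 14.8% and 18.2% in control 2, MTR4 KD 1 and MTR4 KD 2. The first principal component, with 43.2% of the variance, separated these sets, so comparisons are given over all libraries and also within the sets or with the set as a term in the model. The hepatocyte markers fixed for the check of the line were all present (10 of 10, mean levels from 19.9 to 9860 CPM, the read count scaled to the library total). Of these 10, 3 were called higher in MTR4 KD and 0 lower, namely the plasma protein genes TTR (log2 fold change 0.88 ± 0.10, adjusted p = 0.00693 by edgeR), APOA1 (0.52 ± 0.07, adjusted p = 0.00921) and ALB (0.29 ± 0.06, adjusted p = 0.0480). In contrast, 8 of the 12 markers of blood, endothelial, fibroblast and biliary cells were under 1 CPM. The summed level of these 12 markers ran from 26.4 to 30.8 CPM in control and from 15.2 to 26.8 CPM in MTR4 KD, most of it SOX9, a biliary marker, at 15.1 to 22.7 CPM in control and 10.3 to 15.4 CPM in MTR4 KD. CFTR, another biliary marker, lay the other way, at 0.746 to 1.18 CPM in control and 1.63 to 2.00 CPM in MTR4 KD. Neither was called over all libraries (adjusted p = 0.131 and 0.0930 by edgeR), and both were with the library set as a term (0.000503 and 0.0222). None of the 12 was at 0 in every library. The part of these markers in the results below was not tested.

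The starts of a divergent transcript and its partner lay close together. In GENCODE (gene models placed on GRCh37) 198 of the 291 pairs had their starts 0 to 1000 bases apart without overlap, with a median of 133 bases between them, 82 had starts that overlap, and 11 were more than 1000 bases apart. The promoter sequences of 4 transcripts whose level changed in MTR4 KD are shown first, because divergent transcripts start near their partners. The windows run from 250 bases before to 50 bases after the RefSeq start of the divergent transcript (GRCh38.p14), 5′ to 3′ on its own strand. Capitals mark matches, on either strand, to CCAAT, to GGGCGG (the core of an Sp1 site), to TATAAA, to CCGGAAG (an ETS core) and to GCATGC (part of an NRF1 site). B4GAT1-DT lies at chr11:66347741-66348040 on the plus strand, DNAJC3-DT at chr13:95676876-95677175, RBM33-DT at chr7:155644357-155644656 and ZNF778-DT at chr16:89217604-89217903, the last 3 on the minus strand.
B4GAT1-DT: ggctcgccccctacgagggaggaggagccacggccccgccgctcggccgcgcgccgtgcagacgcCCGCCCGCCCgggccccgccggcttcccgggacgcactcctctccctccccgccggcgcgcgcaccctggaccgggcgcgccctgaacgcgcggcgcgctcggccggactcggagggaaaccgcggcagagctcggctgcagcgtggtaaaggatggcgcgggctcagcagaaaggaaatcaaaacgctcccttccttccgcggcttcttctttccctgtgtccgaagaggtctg
DNAJC3-DT: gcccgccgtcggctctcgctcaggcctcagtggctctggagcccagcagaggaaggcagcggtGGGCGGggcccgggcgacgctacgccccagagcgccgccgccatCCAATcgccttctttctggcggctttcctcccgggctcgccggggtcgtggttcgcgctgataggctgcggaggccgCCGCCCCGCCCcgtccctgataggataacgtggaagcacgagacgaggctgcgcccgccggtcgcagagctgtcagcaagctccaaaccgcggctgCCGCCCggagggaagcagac
RBM33-DT: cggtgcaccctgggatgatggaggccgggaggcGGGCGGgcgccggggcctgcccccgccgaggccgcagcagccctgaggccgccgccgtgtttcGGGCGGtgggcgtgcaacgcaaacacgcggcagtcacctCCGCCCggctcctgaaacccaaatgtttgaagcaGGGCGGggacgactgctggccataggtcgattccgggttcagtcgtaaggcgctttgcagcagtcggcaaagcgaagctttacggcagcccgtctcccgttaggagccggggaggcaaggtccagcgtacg
ZNF778-DT: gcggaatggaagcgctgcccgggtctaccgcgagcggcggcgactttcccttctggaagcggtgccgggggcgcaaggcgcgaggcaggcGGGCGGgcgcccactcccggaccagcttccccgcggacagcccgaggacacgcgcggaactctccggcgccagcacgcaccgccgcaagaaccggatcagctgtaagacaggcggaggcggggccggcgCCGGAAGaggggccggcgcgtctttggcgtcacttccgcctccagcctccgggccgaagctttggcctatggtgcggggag

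The partner's RefSeq start falls inside the DNAJC3-DT window, at position 95677139, and inside the ZNF778-DT window, at position 89217703, and it lies just upstream of the RBM33-DT window, at position 155644661. GGGCGG occurred 2 times in the B4GAT1-DT window, 4 times in the DNAJC3-DT and RBM33-DT windows and 1 time in that of ZNF778-DT, and none of the 4 held TATAAA. The windows shared this make-up with the whole group. Of the 221 divergent transcripts that RefSeq lists with a window, 76.5% held GGGCGG on either strand, against 44.6% of all 27305 RefSeq promoter windows of the same length. CCGGAAG was found in 24.0% of them against 10.7%, GCATGC in 14.5% against 7.48%, CCAAT in 32.1% against 35.7%, and TATAAA in 3.62% against 11.95%. The median GC content was 69.7% against 58.3%, with a median of 31 CpG dinucleotides a window against 14. The partners' windows, which often cover the same bases, gave 76.4% for GGGCGG. These are matches of letters and not measured binding.

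The annotated 3′ ends of the same 4 transcripts are shown because poly(A) signals mark where such RNAs end. Each line is the last 50 bases of 1 GENCODE transcript, with the poly(A) signal AATAAA or ATTAAA in capitals. Where a gene had transcripts with the signal, the longest of those was chosen, so the ends shown were selected for it. All 4 genes are lncRNA genes in GENCODE.
B4GAT1-DT: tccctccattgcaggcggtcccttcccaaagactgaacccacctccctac
DNAJC3-DT: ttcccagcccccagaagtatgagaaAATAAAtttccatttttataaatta
RBM33-DT: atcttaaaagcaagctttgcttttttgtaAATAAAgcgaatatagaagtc
ZNF778-DT: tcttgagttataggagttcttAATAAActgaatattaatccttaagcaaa

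B4GAT1-DT had the signal in none of its 4 annotated transcripts. ZNF778-DT had it in its 1 transcript, RBM33-DT in 1 of 5 and DNAJC3-DT in 3 of 9. Over the whole group, 217 of 291 genes (74.6%) had the signal in the last 50 bases of at least 1 transcript. The share was 94.5% among their partners and 68.5% among all lncRNA genes tested.

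MTREX itself was measured at 72.2, 87.4 and 74.4 CPM in control and at 44.6, 48.8 and 44.1 CPM in MTR4 KD. All MTR4 KD libraries lay below all control libraries. The mean fell from 78.0 ± 8.25 to 45.8 ± 2.60 CPM (SD, n = 3 each), a log2 fold change of -0.77 ± 0.09 (SE; adjusted p = 0.00641), so that much of the MTREX RNA remained. Here and below, adjusted p comes from edgeR's quasi-likelihood test of MTR4 KD against control with Benjamini-Hochberg adjustment over all 18075 genes tested, and a gene is called when it is under 0.05.

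Of the 289 divergent transcripts that entered this test, 5 rose in MTR4 KD and 0 fell. That is 1.73%, against 3.60% of all genes called in either direction, 1.48% higher and 2.12% lower, so the share of divergent transcripts called higher lay close to that of all genes called higher, and none was called lower. At an unadjusted p under 0.05 by edgeR there were 42 higher and 3 lower of the 289, and 1614 higher and 1778 lower of all 18075 genes. DESeq2's Wald test called 14 higher and 0 lower (all genes 7.54%, with 3.28% higher and 4.26% lower). Of the 5, none reached a fold change of 2. Described here are 4 of them, B4GAT1-DT, RBM33-DT, DNAJC3-DT and ZNF778-DT, and each had a larger estimated change than its partner. The 4 were selected as called in these same libraries and their partners were not, so that difference largely follows from the selection.

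B4GAT1-DT (ENSG00000255468, chromosome 11) runs away from B4GAT1, which encodes a glucuronyltransferase of the sugar chain on α-dystroglycan. It was at 10.9, 9.94 and 10.6 CPM in control and 16.9, 18.0 and 21.7 CPM in MTR4 KD, and the groups did not overlap. The rise was 1.80-fold (log2 fold change 0.85 ± 0.11 SE, adjusted p = 0.00998), and was 1.01 on the log2 scale in the set with more non-unique alignments and 0.81 in the other. B4GAT1 was at 114, 107 and 109 CPM in control and 128, 132 and 124 CPM in MTR4 KD, a log2 fold change of 0.21 ± 0.06 that was not called (adjusted p = 0.111). B4GAT1-DT shares bases with 1 other annotated gene.

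RBM33-DT (ENSG00000216895, chromosome 7) showed the smallest rise of the 4 and the smallest spread. It was at 12.8, 12.2 and 12.4 CPM in control and 15.8, 16.0 and 16.2 CPM in MTR4 KD (0.36 ± 0.07 on the log2 scale, adjusted p = 0.0410). RBM33, which encodes an RNA-binding protein, was between 73.9 and 75.7 CPM in control and between 75.8 and 76.7 CPM in MTR4 KD. In GENCODE the first exons of this pair overlap (a start gap of -754 bases), while the RefSeq starts lie 255 bases apart, and RBM33-DT shares bases with 2 genes, its partner among them.

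DNAJC3-DT (ENSG00000247400, chromosome 13) starts beside DNAJC3, the gene of a co-chaperone of the endoplasmic reticulum that is induced in the unfolded protein response. It was at 2.47, 2.67 and 2.02 CPM in control and 4.89, 3.83 and 3.90 CPM in MTR4 KD. The rise was 1.76-fold (0.82 ± 0.16 on the log2 scale, adjusted p = 0.0433) with no overlap, and neither DNAJC3-DT nor ZNF778-DT shares bases with another annotated gene. DNAJC3 ran from 198 to 254 CPM in control and from 219 to 283 CPM in MTR4 KD, and the groups overlapped (0.25 ± 0.13, adjusted p = 0.370).

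ZNF778-DT (ENSG00000259877, chromosome 16) lies beside ZNF778, a zinc finger protein gene. It was at 1.703, 1.53 and 1.36 CPM in control and 2.66, 2.50 and 2.48 CPM in MTR4 KD (0.73 ± 0.15 on the log2 scale, adjusted p = 0.0483). The groups did not overlap, and ZNF778 was between 12.7 and 14.8 CPM in control and between 16.3 and 17.1 CPM in MTR4 KD (0.25 ± 0.09, adjusted p = 0.188).

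The calls depended on which libraries were included. When each library was left out in turn, B4GAT1-DT was called in 3 of the 6 fits, DNAJC3-DT in 1 and RBM33-DT and ZNF778-DT in 0. All 4 kept their direction, and the number of calls among divergent transcripts was 0 without control 1, without control 3 or without MTR4 KD 2, 1 without MTR4 KD 1, 2 without MTR4 KD 3 and 4 without control 2. Calls among the partners moved too, from 15 over all libraries to 5, 18 and 6 without control 1, 2 and 3. They were 6, 5 and 15 without MTR4 KD 1, 2 and 3. No share of all genes called is given for the fits with a library left out. With the replicate number as a block in the model, 3 rose and 0 fell, where 4.74% of all genes were called, 1.89% higher and 2.85% lower.

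The distribution of the whole group lay higher than the few calls show. The median log2 fold change was 0.21 (quartiles -0.09 and 0.48), while that of all genes tested was 0.0062 (quartiles -0.17 and 0.16). In all, 201 divergent transcripts were above 0 and 88 below, so 69.6% were above 0 against 51.1% of all genes. These counts include transcripts that reached the count minimum through a single group, described below. Measured as the median difference from the control mean, the MTR4 KD libraries stood at 0.20, 0.20 and 0.21 on the log2 scale and the control libraries at -0.0076, 0.026 and 0.027. The summed level of the 289 transcripts tested was 666, 658 and 677 CPM in control and 743, 735 and 753 CPM in MTR4 KD. In the first measure the control libraries lie near 0 by construction, so it shows only how alike the MTR4 KD libraries were. In the summed level the 3 MTR4 KD libraries were above the 3 control libraries. Both measures include the transcripts that reached the count minimum through a single group. With bulk RNA, more RNA per cell and more cells that make the RNA cannot be told apart.

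**Figure D1:**
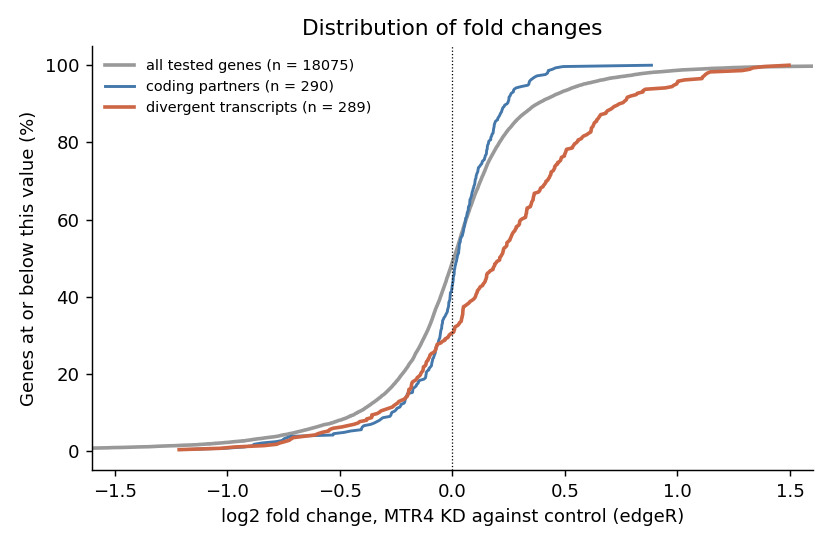
Cumulative share (%) of divergent transcripts, their coding partners and all tested genes by log2 fold change of MTR4 KD against control. The curve of the 289 divergent transcripts runs to the right of the others, crossing the midline near its median of 0.21, while partners (median 0.02) and all genes (median 0.0062) cross near 0; the outermost values of all genes lie beyond the axis.

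The count minimum was reached unequally in the 2 groups. Of the 291 transcripts, 214 had 10 reads in all 6 libraries, 36 reached them in 3 MTR4 KD but fewer than 3 control libraries, and 10 the reverse. Over those with 10 reads in all 6 libraries the median log2 fold change was 0.19. By library, 54 divergent transcripts (18.7%) had every MTR4 KD library above every control library, where 12.1% of all genes did, and 12 (4.15%) had every MTR4 KD library below, where 12.6% of all genes did. These shares include the 36 and the 10, and are not given without them.

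Within the library sets the same side prevailed. The median difference was 0.22 in the set with more non-unique alignments (2 control libraries and 1 MTR4 KD library) and 0.15 in the other (1 control library and 2 MTR4 KD libraries). In both sets at once 149 transcripts (51.6%) were above 0, against 34.3% of all genes, and 56 (19.4%) were below 0, against 33.6%. These shares include transcripts that reached the count minimum through a single group, and are not given without them. With the set as a term in the edgeR model, 28 divergent transcripts rose and 0 fell (9.69%). In that model 20.2% of all genes were called, 9.43% higher and 10.8% lower, so the share of divergent transcripts that rose was again near that of all genes. All 28 were higher in MTR4 KD within both sets, 22 of them had groups that did not overlap over all libraries, and the 5 above were among them. The 28 were selected in that model from the same libraries, so these traits largely follow from the selection. No like share is given for all genes called in that model.

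**Figure D2:**
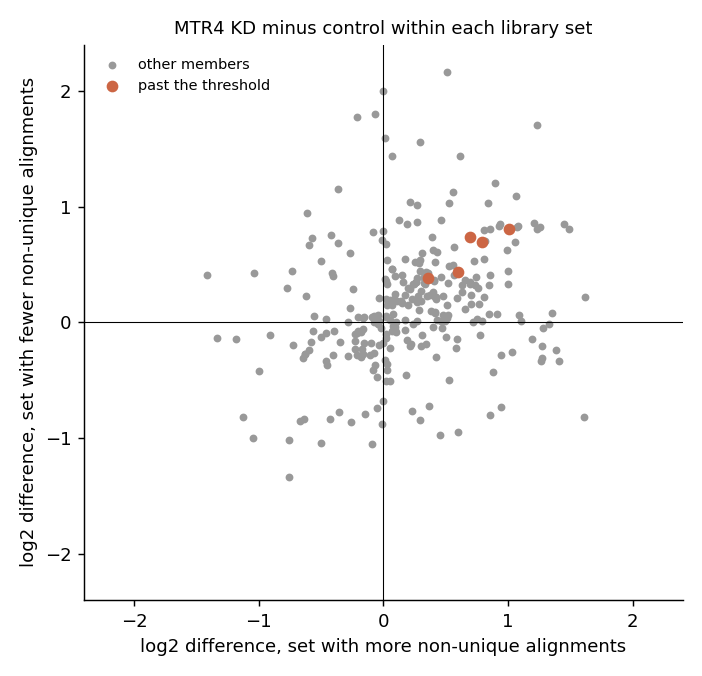
Log2 difference of MTR4 KD minus control for each of 289 divergent transcripts in the library set with more non-unique alignments (horizontal) and in that with fewer (vertical). Coloured points are the 5 transcripts called over all libraries; 149 points lie in the upper right quadrant and 56 in the lower left.

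Of the further transcripts called in that model, 5 are described, chosen after their values were seen. SMG1-DT, beside the gene of the kinase that triggers nonsense-mediated decay, was at 0.324, 0.387 and 0.265 CPM in control and 0.782, 0.674 and 0.718 CPM in MTR4 KD (log2 fold change 1.09 ± 0.34, adjusted p = 0.0364 in the model with the set, and 0.0714 without it). EIF3J-DT, beside a translation initiation factor gene, ran from 10.3 to 11.3 CPM in control and from 12.6 to 14.4 CPM in MTR4 KD (0.28 ± 0.07, adjusted p = 0.0164 with the set). These groups did not overlap.

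NDUFA6-DT, beside a gene of respiratory complex I, was at 3.05, 2.73 and 2.60 CPM in control and 4.06, 4.33 and 3.80 CPM in MTR4 KD (0.52 ± 0.13, adjusted p = 0.0137 with the set). ZMPSTE24-DT, beside the gene of the protease that matures lamin A, was at 11.4, 12.2 and 10.5 CPM against 13.7, 14.4 and 16.5 CPM (0.40 ± 0.09, adjusted p = 0.00645 with the set). MBTPS1-DT, beside the site-1 protease gene, had groups that overlapped, at 1.01, 0.331 and 0.829 CPM in control and 0.505, 0.719 and 2.19 CPM in MTR4 KD (1.10 ± 0.27, adjusted p = 0.0122 with the set, and 0.625 without it). Its levels differed by set, and within each set MTR4 KD was above control. By annotation, SMG1-DT and EIF3J-DT each share bases with 1 other gene and NDUFA6-DT with 4.

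Some transcripts had larger fold changes without passing the test, all of them at low counts, and these too were chosen for their values. RPL37A-DT had the highest log2 fold change, 1.50 ± 0.49 (adjusted p = 0.162), from 12, 5 and 7 reads in control and 23, 31 and 14 reads in MTR4 KD. OSMR-DT had the lowest, -1.21 ± 0.45 (adjusted p = 0.210), from 12, 21 and 18 reads against 9, 4 and 8 reads. The count minimum was met by RPL37A-DT mainly in MTR4 KD and by OSMR-DT only in control, so neither extreme is independent of that rule. A fold change over 2 was reached by 13 higher and 2 lower divergent transcripts, these among them, where 1.33% of all genes were over 2-fold higher and 2.22% lower.

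Other noncoding RNAs give the scale for these values. Antisense transcripts (symbols with -AS and a number, 573 tested) had 6 called higher and 2 lower with a median log2 fold change of 0.12, and 63.4% were above 0. Long intergenic transcripts (LINC symbols, 348 tested) had 4 higher and 5 lower, a median of 0.05 and 54.0% above 0. Protein-coding genes had a median of -0.0062 with 48.7% above 0. The divergent transcripts had the highest median of the 4 classes, and the difference between the classes was not tested. With the library set in the model the medians were 0.23, 0.11, 0.07 and -0.0060. The median of the divergent transcripts includes those that reached the count minimum through a single group. Over those with 10 reads in all 6 libraries it was 0.19. Protein-coding genes were not selected by that minimum. All lncRNA genes tested (2606), also without it, had a median of 0.10 and 59.8% above 0.

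Whether a divergent transcript moved apart from its own promoter's coding gene was tested as the change of the log2 ratio of the transcript to its partner, with limma over 1998 pairs of genes that start head to head or carry a -DT symbol. Of the 288 pairs with a divergent transcript, 0 were called (0.35% of all pairs were). At an unadjusted p under 0.05 by limma there were 37 higher and 1 lower, and no like share of all pairs is given. The ratio was higher in MTR4 KD in 198 pairs and lower in 90, with a median difference of 0.18. In 48 pairs every MTR4 KD library was above every control library and in 5 every one was below. The groups of 418 of all 1998 pairs (20.9%) did not overlap in either direction, a share that is not given by side. The pairs too include transcripts that reached the count minimum through a single group. Head-to-head pairs of another noncoding gene with a coding gene (520) had a median of 0.12, and pairs of coding genes (1119) one of -0.02.

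For B4GAT1-DT the log2 ratio to B4GAT1 was -3.39, -3.43 and -3.36 in control and -2.92, -2.87 and -2.52 in MTR4 KD, a difference of 0.62 ± 0.13 (adjusted p = 0.0859). The groups did not overlap, and the pair did not pass the threshold. In the model with the library set, 21 pairs rose and 1 fell, where 12.7% of all pairs were called, and the median was 0.19.

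Pairs called in that model were of more than 1 kind, as shown by 3 of them, the first 2 chosen after their values were seen. For TMCC1-DT and TMCC1, an endoplasmic reticulum membrane protein gene, the ratio rose by 0.92 ± 0.23 (adjusted p = 0.00972 with the set) as TMCC1 fell from 53.4 ± 1.00 to 31.7 ± 1.91 CPM (SD, n = 3), with TMCC1-DT at 1.26 ± 0.33 and 1.52 ± 0.16 CPM. For ZC3H12A-DT and ZC3H12A, the gene of the endoribonuclease Regnase-1, the ratio rose by 0.70 ± 0.14 (adjusted p = 0.00218 with the set), with ZC3H12A-DT at 3.66 ± 0.38 and 3.67 ± 0.58 CPM and ZC3H12A at 11.3 ± 2.33 and 5.94 ± 0.89 CPM. The pair that fell was CEBPA-DT with CEBPA, a liver transcription factor gene, at -0.38 ± 0.11 (adjusted p = 0.0229 with the set). Without the set, that ratio difference was 0.11 ± 0.48.

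The levels of CEBPA followed the library set. CEBPA was at 26.8, 7.49 and 28.6 CPM in control 1 to 3 and at 11.9, 13.6 and 41.1 CPM in MTR4 KD 1 to 3, so that its groups overlapped while each set had its own level. CEBPA-DT was at 8.53, 7.47 and 9.62 CPM in control and 8.75, 8.71 and 11.6 CPM in MTR4 KD.

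Across the 288 pairs the fold changes of transcript and partner were only loosely related (Pearson r 0.28, Spearman rho 0.27, a description over pairs measured in the same 6 libraries). In 124 pairs both were above 0, in 77 only the divergent transcript was, in 40 only the partner was, and in 47 both were below.

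**Figure D3:**
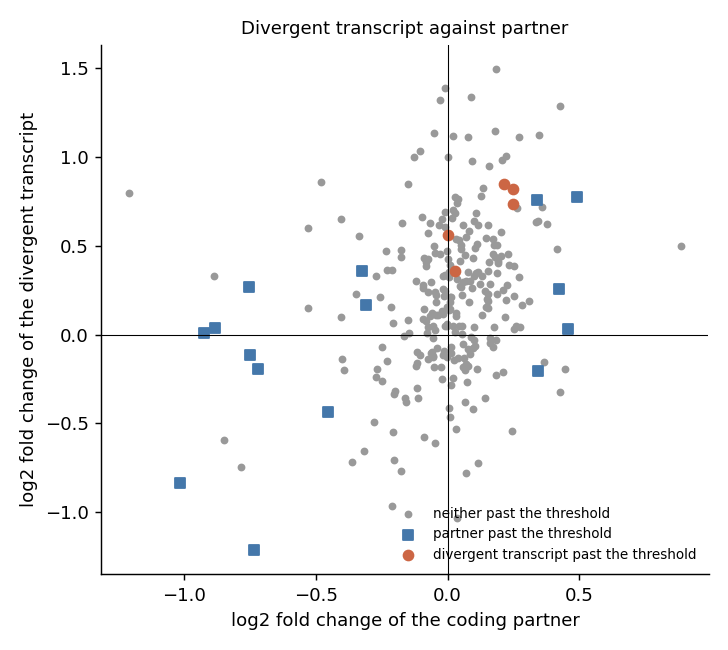
Log2 fold change of each divergent transcript (vertical) against that of its coding partner (horizontal) in 288 pairs. Circles in colour are the 5 divergent transcripts called and squares the 15 partners called; no pair has both called, and the called partners that fell have transcripts on either side of 0.

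Of the 290 partners tested, 5 rose and 10 fell (5.17%, against 3.60% of all genes), with a median log2 fold change of 0.02. HK2, the gene of hexokinase 2, fell by 1.01 ± 0.14 on the log2 scale (adjusted p = 0.0112). ZC3H12A fell by 0.93 ± 0.18 (adjusted p = 0.0401), ADM, the gene of the peptide adrenomedullin, by 0.88 ± 0.06 (adjusted p = 0.000794) and TMCC1 by 0.75 ± 0.07 (adjusted p = 0.00193). Among those that rose were the kinase gene LRRK2 (0.49 ± 0.09, adjusted p = 0.0321), IBA57, which acts in mitochondrial iron-sulfur cluster assembly (0.46 ± 0.09, adjusted p = 0.0348), NCMAP (0.42 ± 0.08, adjusted p = 0.0354) and SMIM14 (0.34 ± 0.06, adjusted p = 0.0315). None of the 15 divergent transcripts beside a called partner was itself called.

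Glucose metabolism genes were among the partners, and their divergent transcripts are given for comparison, chosen after their values were seen. HK2-DT was at 0.568, 0.815 and 0.730 CPM in control and 0.408, 0.494 and 0.277 CPM in MTR4 KD, so its groups did not overlap and lay on the same side as those of HK2 (log2 fold change -0.84 ± 0.31, adjusted p = 0.208). SLC2A1, the gene of the glucose transporter GLUT1, fell by 0.72 ± 0.05 on the log2 scale (adjusted p = 0.00105), while SLC2A1-DT was at 0.211, 0.332 and 0.216 CPM in control and 0.293, 0.225 and 0.147 CPM in MTR4 KD (-0.20 ± 0.40, adjusted p = 0.844). GAPDH, the glycolytic dehydrogenase gene, fell by 0.32 ± 0.06 (adjusted p = 0.0307), and GAPDH-DT was at 0.162, 0.235 and 0.381 CPM against 0.293, 0.344 and 0.359 CPM (0.36 ± 0.39, adjusted p = 0.678). The last 2 transcripts had overlapping groups and at most 24 reads a library.

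Divergent transcripts were mostly scarce. For the 289 tested, the mean level over the 6 libraries had a median of 0.704 CPM (quartiles 0.296 and 2.22), which is a median of 45.3 reads a library. Of these 289, 166 were below 1 CPM while 16 reached 10 CPM. Per kb of annotated exon, the median was 0.399 CPM for the divergent transcripts and 7.02 CPM for the partners. The partner was higher in 270 of 288 pairs, with a median of 17.3-fold, and the divergent transcript in 18.

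**Figure D4:**
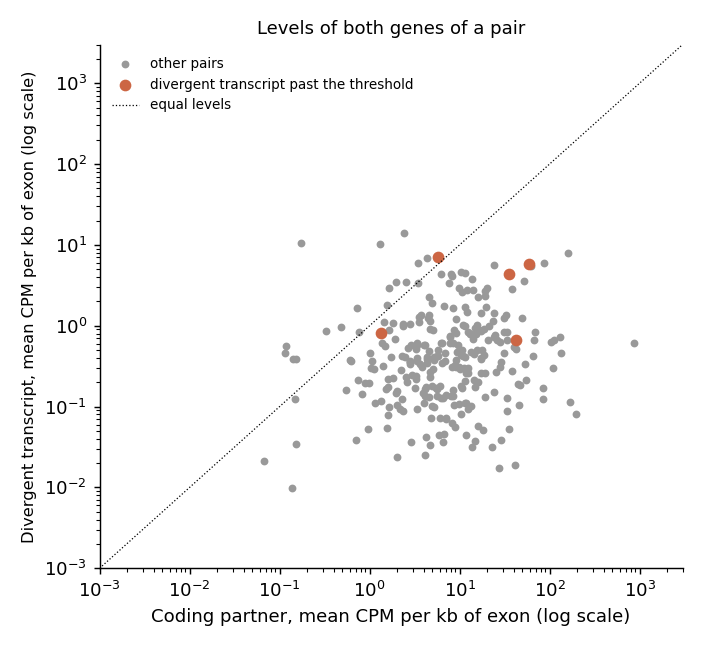
Mean level per kb of exon of each divergent transcript (vertical, log scale) against that of its partner (horizontal, log scale) over the 6 libraries, with the line of equal levels. Most points lie below the line (270 of 288 pairs), and of the 5 called transcripts RBM33-DT lies above it.

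The transcripts of highest mean CPM, leaving out chromosome 8, were BAIAP2-DT, ZNF584-DT, C2orf74-DT, CTBP1-DT, CNN3-DT, RNASEH1-DT, B4GAT1-DT and PCCA-DT. BAIAP2-DT was at 45.4, 48.6 and 47.3 CPM in control and 54.7, 53.3 and 47.3 CPM in MTR4 KD (log2 fold change 0.14 ± 0.07, adjusted p = 0.370). Per kb it was higher than BAIAP2, the gene of an actin-organizing adaptor, at 10.4 against 1.32 CPM per kb. The same held for ZNF584-DT, with 14.1 against 2.41 CPM per kb, which was at 52.5, 41.6 and 55.3 CPM in control and 41.7, 45.2 and 52.1 CPM in MTR4 KD (-0.10 ± 0.13, adjusted p = 0.721). C2orf74-DT was at 30.8, 31.4 and 31.5 CPM in control and 35.8, 35.8 and 32.3 CPM in MTR4 KD (0.15 ± 0.07, adjusted p = 0.291).

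CTBP1-DT, beside the gene of a transcriptional co-repressor, was at 31.5, 27.0 and 30.7 CPM in control and 36.2, 35.0 and 33.1 CPM in MTR4 KD, without overlap (0.23 ± 0.08, adjusted p = 0.194, and 0.0238 with the library set). CNN3-DT, beside the calponin 3 gene, ran from 18.4 to 20.3 CPM in control and from 19.6 to 20.5 CPM in MTR4 KD (0.04 ± 0.07). RNASEH1-DT, beside the gene of ribonuclease H1, ran from 12.5 to 16.1 CPM and from 13.6 to 16.8 CPM (0.05 ± 0.13), and its sign changed when control 2 or MTR4 KD 3 was left out. PCCA-DT, beside a gene of propionyl-CoA carboxylase, ran from 14.7 to 15.3 CPM and from 13.1 to 14.6 CPM (-0.13 ± 0.08, adjusted p = 0.432). The most abundant divergent transcripts thus had log2 fold changes on both sides of 0, with B4GAT1-DT as the 1 called.

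The transcripts were also divided into 3 groups by mean CPM. The scarcest 96 (0.122 to 0.392 CPM) held only 21 with 10 reads in all 6 libraries and every one of the 36 and 10 that reached the minimum through 1 group, so no median is given for them. All of the next 96 (0.395 to 1.39 CPM) and of the most abundant 97 (1.42 to 49.4 CPM) had 10 reads in all 6 libraries. Their median log2 fold changes were 0.22 and 0.15, while all genes in the same ranges had medians of 0.036 and 0.010. The 5 calls were all in the most abundant group. With the library set in the model, the groups had 1, 9 and 18 calls, from the scarcest to the most abundant. In that model 20.2% of all genes of any level were called, 9.43% higher. The share of all genes called in each of these ranges is not given, so no trend with level is read from the calls.

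Other features divided the group as follows, each given as a description that includes the scarcest transcripts. The 197 transcripts whose start lay 0 to 1000 bases from the partner's without overlap had a median of 0.24 and 4 calls, the 81 with overlapping starts a median of 0.13 and 1 call, and the 11 farther away a median of 0.10 and 0 calls. Those that overlap no other annotated gene (121) had a median of 0.26 with 3 calls, and those that do (168) a median of 0.17 with 2. Transcripts with 1 exon (69) had a median of 0.26 and spliced ones (220) of 0.18. Without a poly(A) signal in the last 50 bases (74) the median was 0.28, and with one (215) it was 0.19. Each of these groups had a median above 0, and the differences between them were not tested.

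The genes that carry out nuclear RNA decay were measured as a list of 26: MTR4 and its NEXT and PAXT partners, the cap-binding and ARS2 proteins, the polyadenylating TRAMP subunits and the exosome. Of these 0 rose and 1, MTREX itself, fell (3.85%, against 3.60% of all genes called), and the median log2 fold change was -0.04 (all genes 0.0062). With the library set in the model 2 rose and 3 fell, where 20.2% of all genes were called, 9.43% higher and 10.8% lower. The share of the list that was called was thus near that of all genes. ZCCHC8, the scaffold of NEXT, rose by 0.24 (adjusted p = 0.00804), and EXOSC2 and EXOSC8, structural subunits of the exosome, fell by 0.19 and 0.26 on the log2 scale (adjusted p = 0.0152 and 0.0263). PABPN1, the nuclear poly(A)-binding protein gene, rose by 0.17 (adjusted p = 0.0469) but had a log2 fold change of -0.14 ± 0.36 without the set.

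At the edge of the count minimum, LRRC8C-DT was just inside with 6, 14 and 10 reads in control and 10, 2 and 5 reads in MTR4 KD. IBA57-DT followed with 7, 10 and 10 against 4, 11 and 12 reads, and CHFR-DT with 6, 8 and 13 against 7, 10 and 11 reads. NRIP3-DT was just outside with 8, 9 and 20 against 9, 6 and 30 reads, as were BTG2-DT with 4, 7 and 14 against 8, 16 and 9 reads and ZNF691-DT with 9, 14 and 1 against 13, 9 and 9 reads. CHFR-DT and GREB1L-DT were counted among the 291 but did not pass edgeR's filter on low counts.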

How the data were processed

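RNA-seq was done on 6 libraries of PLC/PRF/5 cells, 3 control and 3 MTR4 KD. Per the labels, total RNA was extracted on RNeasy columns. The authors deposited per-gene read counts, 1 file a library. Per the labels and the submitters' processing notes the tools were HISAT2 2.1.0, HTSeq and DESeq2 with GRCh38; the strand setting is not given in the sources used here, so reads where genes overlap cannot be assigned to a strand. The files hold only uniquely assigned reads (HTSeq's summary lines, which name no gene, were left out of library sizes; 14.8% to 37.5% of alignments were non-unique and 5.89% to 8.29% ambiguous between genes). Symbols and gene models came from GENCODE 44 lifted to GRCh37 by gene identifier, which matched 56959 of 60675 counted genes, and coordinates and promoters from RefSeq (GRCh38.p14).

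Counts were tested with edgeR 4.0.16 (filterByExpr, TMM, quasi-likelihood test) in R 4.3.3 with group as the only term, and BH adjustment over 18075 genes. Pair ratios were log2 CPM differences (prior count 2) tested with limma 3.58.1, over 1998 pairs. Alternatives were DESeq2 1.42.0, other scalings and filters, other count minimums, the library set (non-unique share above or below 30%, a division made from the files and not from a label) or the replicate number as a term, and leaving out each library. Replicate numbers are shared between the groups, but same-numbered libraries did not deviate together in every pair (r = -0.24, 0.32 and 0.35), so the numbers were not taken as pairs. No pair of libraries agreed within counting noise (χ2 per degree of freedom 4.54 or more). On simulated counts with 200 of 18075 genes changed 2-fold, the edgeR test found 119 with 10 false calls, and on 54 changed pairs of 1998 the limma test found 28 with 4 false calls.

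The divergent transcripts and the other gene lists were chosen with earlier results of these data known. Named genes were MTREX, each divergent transcript called (up to 12 a direction), the 8 of highest mean CPM, the partners of these, up to 6 pairs a direction called by ratio, 3 transcripts on each side of the count minimum and up to 4 called genes a list and direction; others are said to have been chosen for their values. The 19 divergent transcripts on chromosome 8 were counted and not named, and 1 called transcript elsewhere is included in the counts and not reported here.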

Additional observations from a re-analysis of the deposited data

How the results depend on the processing

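With the replicate number as a block, 3 divergent transcripts were called (B4GAT1-DT and DNAJC3-DT among them, all among the 5) and 1 pair ratio; the numbers did not pair the libraries. DESeq2's Wald test called 14 divergent transcripts, 27 partners, 2 genes of the decay list, 23 antisense and 23 LINC transcripts; the library set as a term gave 28, 78, 5, 53 and 40, and 22 pair ratios. Of all genes, DESeq2 called 7.54% and the model with the library set 20.2%. Without a filter 3 divergent transcripts were called, among those that overlap no other gene 3, and with a fold change over 2 as well 0. Leaving out 1 library gave 0 to 4 divergent transcripts, 5 to 18 partners, 0 to 7 antisense, 2 to 11 LINC and 0 to 1 pair ratios, with no like share of all genes given. The cause of these shifts was not tested, except that a left-out library leaves fewer samples and the fold rule a stricter call.

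The median log2 fold change of the divergent transcripts was 0.15 with a filter of 1 CPM, 0.23 with the library set, 0.22 with total counts, 0.18 at 30 counts, 0.19 at 10 counts in all 6 libraries, 0.26 without overlapping genes and 0.17 to 0.22 with a library left out. The median ratio difference was 0.15 at 1 CPM and 0.16 to 0.20 with a library left out. MTREX stayed called in every fit, between -0.82 and -0.68 with a library left out.

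Genes near 0 changed sign. ZNF584-DT was 0.0082 with the library set, and BAIAP2 was -0.0053 without a filter. With a library left out, BAIAP2 ran from -0.070 to 0.10, RNASEH1-DT from -0.052 to 0.13 and PCCA from -0.13 to 0.041. The median depth of a divergent transcript was 45.3 reads a library, and how far that limited the calls was not tested.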

Other observations

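A measure outside the gene counts is the share of reads that HTSeq placed in no annotated feature. It is taken over these reads, those counted in genes and those ambiguous between genes, without low-quality alignments. Whether introns counted as features is not given in the sources used here. The share was 4.19%, 4.01% and 4.50% in control 1 to 3 and 4.23%, 4.19% and 4.38% in MTR4 KD 1 to 3, so the groups overlapped. Within the library set with fewer non-unique alignments it was 4.01% in the control library and 4.23% and 4.19% in the MTR4 KD libraries, and within the other set 4.19% and 4.50% in control and 4.38% in MTR4 KD.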
